A study of Mus musculus with 32 samples.

Results

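Klf2, Klf4 and Klf5 are the Kruppel-like factor genes tied to naive pluripotency in the mouse. Their probe sets were taken from the platform annotation wherever it gave exactly 1 gene symbol equal to 1 of these names. These 3 of the 18193 genes measured had 6 of the 45101 probe sets of the array: 1 for Klf2, 2 for Klf4 and 3 for Klf5. Each was read on all 32 Affymetrix arrays of a study that drove mouse cells from pluripotency to primordial germ cell-like cells (PGCLCs), the cultured counterpart of the primordial germ cells (PGCs) that found the germ line. Cells of 16 groups were hybridised on 2 arrays each, from PCR-amplified cDNA of small cell samples.

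The 22 newly submitted arrays all carried cells of the male clone BVSCR26rtTA, on a C57BL/6 + 129 background with Blimp1-mVenus, stella-ECFP and Rosa26-rtTA, controls included. BP14A cells added piggyBac transgenes under doxycycline (Dox) control for Avi-Blimp1, 3xFLAG-Prdm14 and V5-Tfap2c. BP14 cells carried the Blimp1 and Prdm14 transgenes, P14A cells the Prdm14 and Tfap2c transgenes, and P14 cells Prdm14 alone. For induction, epiblast-like cells (EpiLCs) made over 36 h were aggregated with Dox at 1.5 μg/ml, and the labels name no cytokine for these cells. BP14A cells were taken at days 2 and 4 and the other combinations at day 2. Cytokine-induced cells (Ck-PGCLCs) of the parental clone, at days 2 and 4, received 500 ng/ml of both BMP4 and BMP8A, with LIF (1000 U/ml), SCF (100 ng/ml) and EGF (50 ng/ml). The parental clone without factor transgenes, given Dox for 2 days, was the negative control (parental +Dox cells), and the 36 h EpiLCs were also of the parental clone. BP14A embryonic stem cells (ESCs) were kept in 2i+LIF, or given Dox until day 2 and then sorted for stella-ECFP, the one sort that the labels name. The 10 earlier arrays held day 6 Ck-PGCLCs, 48 h EpiLCs and 2i+LIF ESCs of male C57BL/6 cells with Blimp1-mVenus and stella-ECFP, PGCs of embryonic day (E) 9.5 with stella-EGFP, and E5.5 epiblast, the embryo samples being of C57BL/6 background and unknown sex. The factor transgenes, in the BP14A, BP14, P14A and P14 lines, are driven from tetO repeats with a minimal CMV promoter, and factor-induced cells differ from the parental controls in line as well as in factors. The design text speaks of biological duplicates. Separate cultures are not named in the labels, and the p-values below rest only on how far paired arrays lay apart, which may in part be technical.

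Kruppel-like factors are zinc finger transcription factors that bind GC-rich and CACCC elements in DNA. In mouse ESCs Klf2, Klf4 and Klf5 share many binding sites and sustain self-renewal together, so that loss of one is buffered by the others. LIF, through STAT3, is known to raise Klf4, whereas MEK-ERK signalling is known to destabilise Klf2 and Klf4 protein. Outside the naive state Klf2 is known from endothelium and quiescent T cells, Klf4 from epidermis and as a reprogramming factor, and Klf5 from trophectoderm and gut epithelium.

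The promoters of Klf2 and Klf4 are shown, and the promoter table used had no entry for Klf5. Both genes were lower in EpiLCs than in ESCs and differed from each other in the cells induced from EpiLCs. The RefSeq promoter table of build GRCm38.p6 gave the 250 bases before the start of each gene. That of Klf2 is chr8:72318812-72319061 on the plus strand and that of Klf4 is chr4:55532476-55532725 on the minus strand. Both are written 5′ to 3′ in the sense of the gene. Capitals mark GC boxes (GGGCGG on either strand), a type of element that Sp and Kruppel-like factors bind.
Klf2: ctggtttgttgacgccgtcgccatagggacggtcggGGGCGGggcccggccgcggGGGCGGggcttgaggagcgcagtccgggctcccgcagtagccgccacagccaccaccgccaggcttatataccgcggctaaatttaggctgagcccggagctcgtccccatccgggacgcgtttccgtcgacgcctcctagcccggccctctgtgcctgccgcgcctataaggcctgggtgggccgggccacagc
Klf4: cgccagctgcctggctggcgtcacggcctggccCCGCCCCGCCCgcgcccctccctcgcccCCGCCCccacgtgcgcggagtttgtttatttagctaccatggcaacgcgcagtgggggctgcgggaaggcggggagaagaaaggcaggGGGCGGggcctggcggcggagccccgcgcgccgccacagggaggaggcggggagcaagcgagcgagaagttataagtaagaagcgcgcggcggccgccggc
The G and C content was 71.2% for Klf2 and 74.0% for Klf4, against a median of 52.4% over all 32851 promoters of that length. Klf2 held 2 GC boxes and Klf4 held 4, of which 2 overlap, and 32.7% of all promoters held at least 1. A CACCC box (CACCC, either strand) stood 19 bases before the start of Klf2 and none in Klf4, with 52.0% of promoters holding one. The AP-2 palindrome GCCNNNGGC, the type of site that Tfap2c binds, occurred once in Klf4 and not in Klf2, against 13.7% of promoters. The STAT palindrome TTCNNNGAA (7.02% of promoters), the ESRRB site TCAAGGTCA (0.387%) and the PRDM14 motif GGTCTCTAA (0.240%) had no match in either window. All motifs were searched on both strands, and a match describes the letters only.

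Replicate arrays correlated at r = 0.9563 to 0.9810 over the 32703 tested probe sets, and arrays of different groups at 0.8794 to 0.9838. The Gapdh 5′ minus 3′ difference, which is low where cDNA is 3′-biased, ran from -4.66 to -0.07. It lay under -2.5 on 6 arrays of 5 groups: both BP14A day 4 arrays, replicate 1 of BP14, of 36 h EpiLCs and of BP14A ESCs, and replicate 2 of BP14A ESCs with Dox. Probe sets entered the fit if any group mean was log2 4.05 or more, the 40th percentile of all values, and levels below it are called dim. A call, higher or lower, needed a limma p under 0.05 after Benjamini-Hochberg adjustment and a change of at least 2-fold. The Klf2 probe set, both Klf4 probe sets and 2 of the 3 Klf5 probe sets were tested. In these bulk samples fewer cells expressing a gene and less RNA per cell cannot be told apart.

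Klf2, on a single probe set (1448890_at), was in most groups either near its ESC level or far below it. On the log2 scale it read 11.49 and 11.55 in day 2 BP14A cells, 11.55 and 11.56 in day 4 BP14A cells, 11.85 and 11.29 in BP14 cells, 11.35 and 11.02 in P14A cells and 11.58 and 11.51 in P14 cells. The other induced cells gave 9.61 and 9.90 in day 2 Ck-PGCLCs, 11.06 and 11.45 in day 4 Ck-PGCLCs and 10.97 and 10.56 in day 6 Ck-PGCLCs. Every factor-induced array lay above every day 2 and day 6 Ck-PGCLC array. Klf2 read 7.54 and 8.12 in parental +Dox cells, 6.14 and 6.11 in 36 h EpiLCs, 6.31 and 7.23 in 48 h EpiLCs and 4.71 and 4.42 in the E5.5 epiblast. It read 11.30 and 11.56 in BP14A ESCs with Dox, against 11.75 and 11.36 in the same ESCs without Dox, and the earlier ESCs gave 11.60 and 11.36. PGCs at E9.5 gave 11.11 and 10.33. All arrays of the parental +Dox, EpiLC and epiblast groups lay below all arrays of the other groups, with no overlap.

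In the order of group means, the 9 highest groups for Klf2 ran from 11.57 ± 0.40 (SD, n = 2) in BP14 cells down to 11.19 ± 0.23 in P14A cells. These were the factor-induced cells, the ESCs and the day 4 Ck-PGCLCs, and no difference between neighbours among them passed (limma adjusted p of 0.797 or more). Day 6 Ck-PGCLCs (10.77) came next without a difference from P14A cells that passed (limma adjusted p = 0.417), and then PGCs (10.72, adjusted p = 0.979). Below them each step had an adjusted p under 0.05, with day 2 Ck-PGCLCs at 9.75, parental +Dox cells at 7.83, then EpiLCs and last the epiblast at 4.56. The step from PGCs to day 2 Ck-PGCLCs, at 0.97, was short of 2-fold. The step between 48 h and 36 h EpiLCs, at 6.77 and 6.12, was the exception (adjusted p = 0.317). Neighbours from different submissions differ in submission too.

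**Figure D1:**
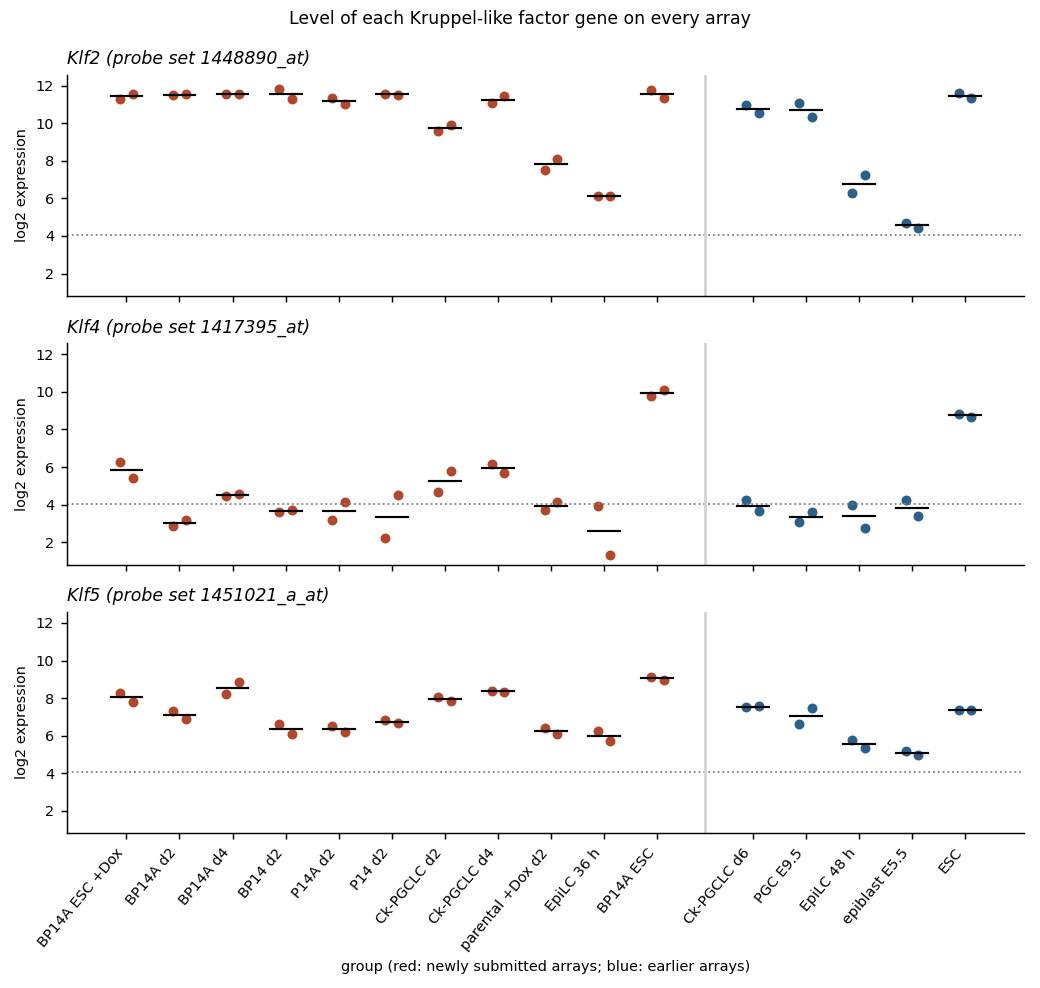
Log2 expression (quantile normalized, vertical axis) of Klf2, Klf4 and Klf5 by their brightest probe sets on each array. Points are arrays, bars are means of 2 arrays, and the dotted line is the level of 4.05 below which a probe set is called dim. Klf2 stands at 11.19 or more in all factor-induced groups, Klf4 is at 8.69 or more on ESC arrays without Dox and at 6.28 or less on all others, and group means of Klf5 run from 5.07 to 9.06.

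Klf4 was an ESC gene in these data. Its brighter probe set (1417395_at) read 9.79 and 10.10 in BP14A ESCs without Dox, and 8.80 and 8.69 in the earlier ESCs. With Dox the BP14A ESCs gave 6.28 and 5.42. No other group reached those ESC levels: Ck-PGCLCs gave 4.69 and 5.78 at day 2, 6.16 and 5.70 at day 4, and 4.24 and 3.65 at day 6. Among factor-induced cells Klf4 was at or near the dim range, with 2.86 and 3.18 in day 2 BP14A cells, 4.44 and 4.58 in day 4 BP14A cells, 3.58 and 3.72 in BP14 cells, 3.17 and 4.16 in P14A cells and 2.21 and 4.51 in P14 cells. The remaining groups were low too, with 3.73 and 4.11 in parental +Dox cells, 3.92 and 1.31 in 36 h EpiLCs, 4.00 and 2.77 in 48 h EpiLCs, 3.05 and 3.59 in PGCs and 4.24 and 3.39 in the epiblast. Both ESC groups without Dox stood apart from all other groups, and day 4 Ck-PGCLCs lay above every factor-induced array. The 36 h EpiLC arrays differed by more than any other pair of replicates for this probe set (SD 1.84), so each fold against EpiLCs is imprecise. In the order of means only the step from ESCs (8.74) to day 4 Ck-PGCLCs (5.93) passed the test among neighbours (difference 2.81, limma adjusted p = 0.00776), and those groups come from different submissions.

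Klf5 was graded rather than on or off. Its brightest probe set (1451021_a_at) read 8.27 and 7.81 in BP14A ESCs with Dox, against 9.14 and 8.97 in BP14A ESCs without Dox, and 7.38 and 7.37 in the earlier ESCs. Factor-induced cells gave 7.33 and 6.89 (BP14A, day 2), 8.23 and 8.85 (BP14A, day 4), 6.60 and 6.09 (BP14), 6.53 and 6.21 (P14A) and 6.81 and 6.66 (P14). Ck-PGCLCs gave 8.07 and 7.86 at day 2, 8.40 and 8.32 at day 4 and 7.50 and 7.57 at day 6. Among induced cells at day 2, the Ck-PGCLC arrays were thus the highest and did not overlap the factor-induced ones. Klf5 read 6.41 and 6.07 in parental +Dox cells, 6.25 and 5.69 in 36 h EpiLCs, 5.77 and 5.36 in 48 h EpiLCs, 6.64 and 7.45 in PGCs and 5.18 and 4.95 in the epiblast. No difference between neighbours in the order of the 16 means passed (limma adjusted p of 0.246 or more), while the highest and lowest means were 3.99 apart.

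The first comparison asks what happened when naive ESCs became EpiLCs, the cells from which each induction starts. All 3 genes were lower in 36 h EpiLCs than in BP14A ESCs. Of the 5 tested probe sets 4 were called lower and 0 higher, against 5.94% of all tested probe sets called lower. Klf4 fell by 7.33 on the log2 scale (95% interval -8.82 to -5.83, limma adjusted p = 3.44e-07), Klf2 fell by 5.43 (-6.06 to -4.80, adjusted p = 2.64e-10) and Klf5 fell by 3.09 (-3.68 to -2.5, adjusted p = 1.35e-07). The second tested Klf5 probe set (1451739_at) read 5.04 and 4.15 in EpiLCs, against 5.24 and 5.77 in ESCs, and was not called (log2 change -0.91, limma adjusted p = 0.0735). EpiLCs and ESCs differ here in clone as well as in state.

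The earlier arrays gave the same calls with other cells. In 48 h EpiLCs 4 of 5 probe sets were lower than in ESCs, against 5.41% of all probe sets, and in the epiblast 4 of 5, against 7.13%. Klf2 was 26.2-fold lower in 48 h EpiLCs (log2 change -4.71, SE 0.30) and 121-fold lower in the epiblast (log2 change -6.92, SE 0.30). The log2 change of Klf4 was -5.36 in 48 h EpiLCs and -4.93 in the epiblast, and that of Klf5 was -1.81 and -2.31, with a limma adjusted p of 0.000105 or less for each. Klf2 was 4.61-fold higher in 48 h EpiLCs than in the epiblast, the only call of 5 probe sets there against 2.26% of all probe sets (log2 change 2.21, limma adjusted p = 0.000139), and this call was lost when only the earlier arrays were fitted (adjusted p = 0.0537). Whether the 36 h and 48 h steps differed was tested directly. None of the 5 probe sets was called by limma in that contrast, against 0.443% of all probe sets, and 1 had an unadjusted p under 0.05: Klf5, whose difference between the steps was -1.28 (SE 0.40, unadjusted p = 0.00443, adjusted p = 0.193).

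Induction by cytokines asks which factors come back when EpiLCs are given BMP4 and its companions. At day 2 all 3 genes were higher in Ck-PGCLCs than in 36 h EpiLCs, with 3 of 5 probe sets called higher against 6.53% of all probe sets, and at day 4 again 3 of 5, against 7.07%. Klf2 was higher by 3.63 at day 2 (SE 0.30, limma adjusted p = 5.21e-08) and by 5.13 at day 4 (SE 0.30, adjusted p = 5.01e-10). Klf5 was higher by 2.00 at day 2 and by 2.40 at day 4 (SE 0.28 each, limma adjusted p = 3.28e-05 and 3.31e-06). Klf4 was higher by 2.62 at day 2 (SE 0.71, limma adjusted p = 0.0135) and by 3.32 at day 4 (adjusted p = 0.00197). Without EpiLC replicate 2 these became 1.32 (adjusted p = 0.276) and 2.01 (adjusted p = 0.0652), and without Ck-PGCLC replicate 2 the day 2 difference was 2.08 (adjusted p = 0.158). The second Klf4 probe set was not called at either day (log2 changes 0.81 and 1.37, limma adjusted p = 0.365 and 0.0805). Between days 2 and 4 only Klf2 passed, higher by 1.50 at day 4 (SE 0.30, limma adjusted p = 0.00154), 1 of 5 probe sets against 4.20% of all.

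Trophoblast and mesoderm markers moved in the same cells. The trophoblast list, log2 of its summed linear levels, stood at 13.33 to 13.39 in day 2 Ck-PGCLCs, with 10 of 11 genes not dim, against 11.02 to 11.22 and 6 of 11 in 36 h EpiLCs. Of its genes 7 were higher and 1 lower, against 8.2% and 5.83% of all genes. Cdx2, a gene of this list, stood at 9.07 in day 2 Ck-PGCLCs and 1.07 in EpiLCs. The nascent mesoderm sum was 12.87 to 13.07 in day 2 Ck-PGCLCs and 8.59 to 8.84 in EpiLCs. Klf5 is known in trophectoderm, and the part of such cells in its level was not tested.

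Induction by the 3 transgenes gave a different set. Day 2 BP14A cells had 2 of 5 probe sets higher than 36 h EpiLCs, against 4.72% of all probe sets, and 0 lower, and day 4 BP14A cells also 2 of 5, against 6.47%. Klf2 was higher by 5.39 at day 2 (95% interval 4.76 to 6.02, limma adjusted p = 5.40e-10), a 42.0-fold difference, and by 5.43 at day 4. Klf5 was higher by 1.15 at day 2 (SE 0.28, limma adjusted p = 0.00807) and by 2.58 at day 4 (SE 0.28, adjusted p = 2.20e-06). The day 2 Klf5 call was lost without BP14A replicate 1 (0.92, adjusted p = 0.107) and without EpiLC replicate 2 (0.87, adjusted p = 0.124). Klf4 was not called at day 2 (log2 change 0.40, 95% interval -1.09 to 1.90, limma adjusted p = 0.816) or at day 4 (1.90, interval 0.40 to 3.39, adjusted p = 0.0733). Without EpiLC replicate 1, of low RNA quality, the day 4 Klf4 difference was 3.20, and over the 4 fits without 1 array it ran from 0.59 to 3.20.

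From day 2 to day 4, Klf5 was the only one of the 5 probe sets to pass in BP14A cells, against 0.774% of all probe sets called higher. It was higher by 1.43 at day 4 (SE 0.28, limma adjusted p = 0.0144). The call was lost without day 2 replicate 2 (1.21, adjusted p = 0.157) and without day 4 replicate 2 (1.12, adjusted p = 0.130). The Gapdh 5′ minus 3′ difference was low on both arrays of day 4. Of 11 trophoblast markers 3 were higher at day 4, against 0.832% of all genes, and 0 lower. The summed level of the list was 11.94 to 12.02 at day 4, against 10.27 to 10.46 at day 2. The 3 were the keratin genes Krt8 and Krt18 and the transcription factor gene Gata2. Krt8 stood at 10.06 at day 4 and 7.86 at day 2, Gata2 at 8.83 and 7.21, and the log2 change of Krt18 was 1.73. Cdx2, of the same list, was dim at 2.19 and 1.50. The sum and Klf5 were also read side by side in other groups. In day 2 Ck-PGCLCs the sum was 13.33 to 13.39, and Klf5 was higher than in 36 h EpiLCs by 2.00. The sum was 13.22 to 13.35 in parental +Dox cells, against 11.02 to 11.22 in 36 h EpiLCs. Klf5 was not called between those groups (log2 change 0.27). BP14A ESCs without Dox had the highest Klf5 mean (9.06) and a sum of 9.76 to 9.93. The part of trophoblast cells in the Klf5 level was not tested. Klf2 was not called between these days (log2 change 0.04, 95% interval -0.59 to 0.66), and in Ck-PGCLCs it was higher by 1.50. The difference between the steps, tested as an interaction, was -1.46 (SE 0.42, limma adjusted p = 0.0337), the 1 call among 5 probe sets against 3.44% of all probe sets called lower. It lost its call in 7 of the 8 fits that left out 1 array of these groups.

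Klf2 was higher than in parental +Dox cells with each combination of factors, and neither Klf4 nor Klf5 was called with any. In all 4 combinations 1 of 5 probe sets was called higher and 0 lower. The background shares called higher were 5% in BP14A cells, 4.69% in BP14 cells, 4.16% in P14A cells and 4.71% in P14 cells. The log2 change of Klf2 was 3.69 for BP14A, 3.74 for BP14, 3.36 for P14A and 3.72 for P14 cells (SE 0.30 each, limma adjusted p = 1.45e-07 or less). With the Prdm14 transgene alone Klf2 was thus 13.1-fold higher. Prdm14, the transgene common to all 4, stood at 8.46 (BP14A), 9.51 (BP14), 8.53 (P14A) and 9.28 (P14), against 2.86 in parental +Dox cells, and whether its probe set reads the transgene was not tested. Klf4 differences ran from -0.90 to -0.26 on its brighter probe set, with intervals that reach from -2.40 to 1.24. Klf5 was higher by 0.87 in BP14A cells (adjusted p = 0.0381), short of the 2-fold limit, and by 0.11, 0.13 and 0.49 in BP14, P14A and P14 cells. Without BP14A replicate 2 the Klf5 difference was 1.10 (adjusted p = 0.0411) and passed both limits. These 4 comparisons share the parental arrays.

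Klf2 also differed between parental +Dox cells and EpiLCs. It was 3.26-fold higher in parental +Dox cells than in 36 h EpiLCs (log2 change 1.70, SE 0.30, limma adjusted p = 0.000441), 1 of 5 probe sets against 5.72% of all. Klf4 was not called there (1.30, limma adjusted p = 0.250). Without EpiLC replicate 1 the Klf4 difference was 2.61, and over the 4 fits without 1 array it ran from 0 to 2.61. In day 2 Ck-PGCLCs, 2 of 5 probe sets were higher than in parental +Dox cells, against 1.53% of all: Klf2 by 1.93 (limma adjusted p = 0.000558) and Klf5 by 1.73 (adjusted p = 0.000825). Both groups had high sums of mesoderm markers, 12.87 to 13.07 in day 2 Ck-PGCLCs and 12.90 to 12.97 in parental +Dox cells, and of trophoblast markers, 13.33 to 13.39 and 13.22 to 13.35. The factor-induced cells at day 2 had mesoderm sums of 6.99 to 7.46.

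Among the 4 combinations no probe set of the 3 genes was called by limma in any of the 4 pairwise comparisons that differ by 1 factor, against 0.165% of all probe sets for BP14A over BP14 cells, 0.0122% for BP14A over P14A, 0.0214% for P14A over P14 and 0.0336% for BP14 over P14. Unadjusted p under 0.05 was reached by 1, 1, 0 and 0 of the 5 probe sets, in each case Klf5. Klf5 was higher by 0.77 in BP14A than in BP14 cells (95% interval 0.18 to 1.35, adjusted p = 0.466) and by 0.74 in BP14A than in P14A cells (0.15 to 1.33, adjusted p = 1). Adding Tfap2c changed Klf5 by 0.77 with Blimp1 present and by -0.36 without it, and the interaction of 1.13 did not pass in limma, against 0.0245% of all probe sets called (SE 0.40, unadjusted p = 0.0103, adjusted p = 1). Klf2 differed by -0.05 between BP14A and BP14 cells and by 0.02 between BP14 and P14 cells, with intervals of -0.68 to 0.58 and -0.61 to 0.65.

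Set directly against each other at day 2, BP14A cells had more Klf2 than Ck-PGCLCs. Klf4 was called lower on its brighter probe set, dim in BP14A cells (3.02), and not on the other (-0.76, limma adjusted p = 0.442). Of 5 probe sets 1 was higher, against 4.13% of all, and 1 lower, against 5.43%. Klf2 was higher in BP14A cells by 1.76 (SE 0.30, limma adjusted p = 0.000303). Klf4 was lower by 2.22 (SE 0.71, limma adjusted p = 0.0430), and this call was lost in 4 of 4 fits without 1 array (differences -2.76 to -1.67, adjusted p = 0.0531 to 0.318). Klf5 was lower by 0.85 (adjusted p = 0.0484), short of 2-fold, and on the deposited scale it was called lower by limma (-1.05, adjusted p = 0.0109). At day 4 the brighter Klf4 probe set was not called (log2 change -1.42, 95% interval -2.91 to 0.07, limma adjusted p = 0.278). The other one (1417394_at) read 1.86 and 3.70 in BP14A cells, against 5.18 and 4.39 in Ck-PGCLCs, and was called lower by 2.01 (adjusted p = 0.0271), 1 of 5 probe sets against 2.05% of all. Without BP14A replicate 1, whose Gapdh value was the lowest, its difference was -1.09 (adjusted p = 0.394), and without Ck-PGCLC replicate 1 it was -1.61 (adjusted p = 0.263). Klf2 and Klf5 differed by 0.30 and 0.18 at day 4, with intervals of -0.33 to 0.93 and -0.41 to 0.77.

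**Figure D2:**
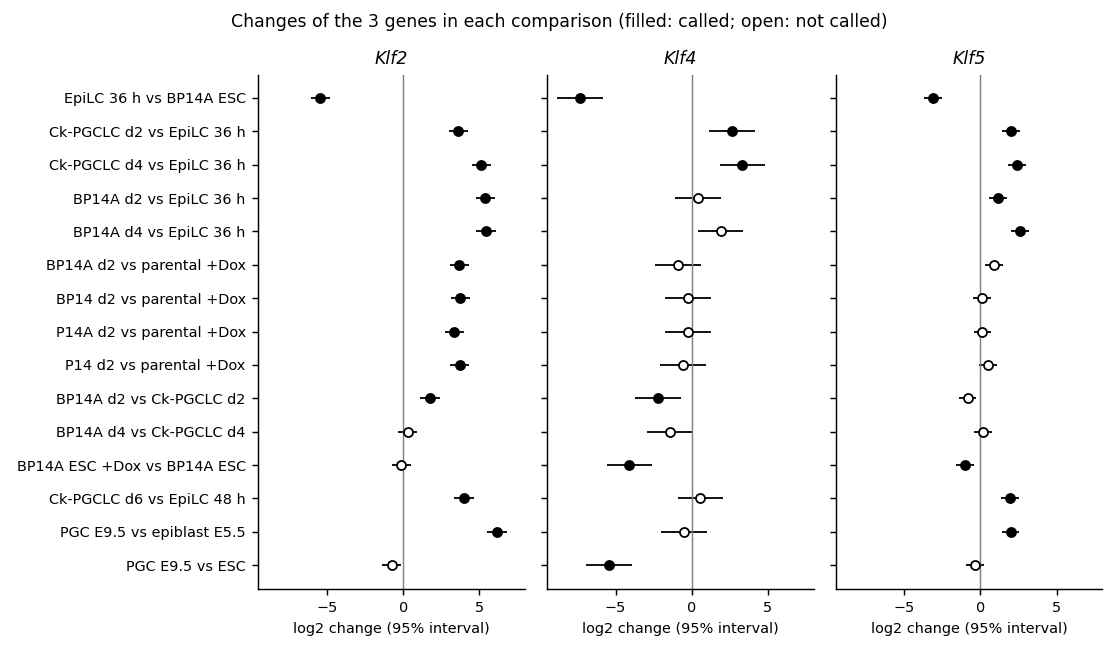
Log2 changes of Klf2, Klf4 and Klf5 by their brightest probe sets (horizontal axis) with limma 95% intervals in 15 comparisons, the first group named over the second. Filled points were called at an adjusted p under 0.05 and at least 2-fold. Klf2 is filled in every comparison of induced cells with EpiLCs or parental +Dox cells. Klf4 is filled in the comparisons with ESCs, in those of Ck-PGCLCs with 36 h EpiLCs and in that of BP14A cells with Ck-PGCLCs at day 2.

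Dox in BP14A ESCs asks what the factors do without the passage through EpiLCs. Sorted BP14A ESCs with Dox had 3 of 5 probe sets lower than BP14A ESCs without Dox, against 2.98% of all probe sets, and 0 higher. Klf4 fell by 4.10 on its brighter probe set (95% interval -5.59 to -2.60, limma adjusted p = 0.000602) and by 4.66 on the other (-5.79 to -3.53, adjusted p = 7.28e-06), where it read 3.49 and 3.21 with Dox, against 7.86 and 8.17 without. Klf5 was lower by 1.02 (SE 0.28, limma adjusted p = 0.0221), at the 2-fold limit. That call was lost with median centring (-1.0) and without either untreated ESC array or replicate 2 with Dox (-1.11 to -0.79). Without the low-quality arrays, which left 1 array against 1, the difference was -0.70. Klf2 was not called (log2 change -0.13, 95% interval -0.75 to 0.50, limma adjusted p = 0.880). Since sorted and unsorted cells were compared, the effect of the sort cannot be told apart from that of Dox. The labels name 2i+LIF for the untreated ESCs and not for the samples given Dox. An effect of a change of medium cannot be told apart from that of Dox either.

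The BP14A ESCs with Dox and the day 2 BP14A cells, which received the same factors from different starting cells, differed in Klf2 by -0.09 (95% interval -0.72 to 0.54), without a call. Klf4 was higher in the ESCs with Dox by 2.83 on its brighter probe set (SE 0.71, limma adjusted p = 0.0191), 1 of 5 against 2.74% of all, and the other probe set gave -0.12 (adjusted p = 0.940). The call was lost in 3 of 4 fits without 1 array (differences 2.40 to 2.99, adjusted p = 0.0736 to 0.151). Against BP14A ESCs without Dox, Klf4 was the only gene called in day 4 Ck-PGCLCs and in day 4 BP14A cells. It was lower by 4.01 (limma adjusted p = 0.000374) and 5.43 (adjusted p = 1.67e-05), with both of its probe sets called, 2 of 5 each time, against 5.67% and 4.83% of all. Klf2 differed there by -0.30 (-0.93 to 0.33) and 0.00 (-0.63 to 0.63), and Klf5 by -0.69 (adjusted p = 0.0992) and -0.52 (adjusted p = 0.246).

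In the embryo Klf2 and Klf5 were higher in PGCs than in the epiblast. PGCs at E9.5 had 71.4-fold more Klf2 signal than the E5.5 epiblast (log2 change 6.16, 95% interval 5.53 to 6.79, limma adjusted p = 4.02e-11) and 3.94-fold more Klf5 signal (1.98, SE 0.28, adjusted p = 3.15e-05). These were 2 of 5 probe sets, against 6.81% of all. Klf4 was not called (-0.49, interval -1.99 to 1.0, adjusted p = 0.726). Day 6 Ck-PGCLCs against 48 h EpiLCs gave 2 of 5 as well, against 7.75% of all: Klf2 by 3.99 (SE 0.30, limma adjusted p = 1.04e-08), Klf5 by 1.97 (adjusted p = 2.78e-05), and Klf4 at 0.56 was not called (adjusted p = 0.652). Day 6 Ck-PGCLCs and PGCs showed 0 calls by limma, against 5.35% of all probe sets, and 1 unadjusted p under 0.05, from the dimmer Klf4 probe set. That probe set read 4.58 and 4.30 in day 6 Ck-PGCLCs and 2.79 and 3.57 in PGCs (log2 change 1.26, adjusted p = 0.202).

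Against ESCs of the same submission, only Klf4 of the 3 genes was called. It was lower by 5.42 in PGCs (SE 0.71, limma adjusted p = 9.68e-06) and by 4.80 in day 6 Ck-PGCLCs (adjusted p = 4.98e-05), with both Klf4 probe sets called in each, 2 of 5 against 7.57% and 5.97% of all. Klf5 was not called in either (-0.33, 95% interval -0.92 to 0.26, and 0.16, -0.43 to 0.75). Klf2 was 1.69-fold and 1.64-fold lower without a call (adjusted p = 0.0771 and 0.111), and without PGC replicate 1 its difference from ESCs was -1.15 (adjusted p = 0.0226).

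The PGC arrays also had higher sums than the epiblast for the neural, fibroblast and endothelial and blood marker lists. They had lower sums for the trophoblast, endoderm and nascent mesoderm lists. Of 6 neural markers 4 were higher and 0 lower, against 8.67% and 6.7% of all genes, and of 8 fibroblast markers 3 were higher and 2 lower. The neural sum was 9.00 to 10.19 in PGCs, against 8.38 to 8.72 in the epiblast. The fibroblast sum was 9.74 to 10.88, against 8.46 to 8.62. Going the other way, the trophoblast sum was 10.88 to 11 in PGCs, against 12.11 to 12.16 in the epiblast. The endoderm sum was 8.97 to 9.41, against 9.78 to 10.73. The nascent mesoderm sum was 8.66 to 8.96, against 9.25 to 9.68. Klf2 is known from endothelium, and of 10 endothelial and blood markers all were above the dim range in PGCs, with a summed level of 12.16 to 13.18, against 8 of 10 and 8.52 to 8.68 in the epiblast, and 3 were higher. These were the embryonic globin genes Hba-x (12.01 in PGCs, 4.95 in the epiblast) and Hbb-bh1 (10.29, 5.41) and Pecam1 (8.88, 3.30), which PGCs are also known to express. The endothelial cadherin gene Cdh5 stood at 5.63 in PGCs and 4.06 in the epiblast. In day 6 Ck-PGCLCs the same sum was 10.71 to 11.07 with 10 of 10 not dim, against 8.67 to 9.32 and 7 of 10 in 48 h EpiLCs, and Cdh5 stood at 8.19 in the Ck-PGCLCs and 3.33 in the EpiLCs. In day 2 BP14A cells the sum was 8.90 to 9.04, against 9.21 to 9.33 in 36 h EpiLCs, while Klf2 was 42.0-fold higher. The part of endothelial, blood or other cells in the Klf2 level of PGCs and day 6 Ck-PGCLCs was not tested.

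The genes around the 3 factors were read from lists of pathway members, each gene by its brightest probe set. Of 10 genes of the LIF-STAT3 pathway, which acts upstream of Klf4, 5 were lower and 0 higher in 36 h EpiLCs than in BP14A ESCs, where 7.19% of all genes were lower. The list median was -1.67, against 0.04 over all probe sets. The receptor genes Lifr (7.05 in EpiLCs, 10.44 in ESCs) and Il6st (6.98, 10.45) fell along with Stat3 (7.86, 9.99) and its target Socs3 (5.44, 10.22), a feedback inhibitor. In day 2 Ck-PGCLCs 6 of 10 were higher than in EpiLCs and 1 lower, against 8.2% and 5.83% of all genes, Socs3 standing at 7.57 and the STAT3 target Bcl3 at 7.66, against 5.44 and 5.20 in EpiLCs. In day 2 BP14A cells 3 of 10 were higher, against 6.08% of all genes: Lifr at 10.05, Il6st at 9.70 and Ier3 at 8.23, against 7.10 for Ier3 in EpiLCs. Socs3 at 4.79, Bcl3 at 4.85 and Stat3 at 7.39 were not called in them (limma adjusted p = 0.434, 0.615 and 0.0889).

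Socs3, Bcl3 and Stat3 were called together in further comparisons. In BP14A ESCs with Dox 4 of the 10 were lower than without, against 3.68% of all genes, among them Socs3 (5.37 with Dox, 10.22 without), Bcl3 (6.07, 10.04) and Stat3 (8.07, 9.99). In day 4 BP14A cells 3 of 10 were lower than in day 4 Ck-PGCLCs, against 2.52% of all genes: Socs3 (6.55, 9.28), Bcl3 (4.89, 8.72) and Stat3 (7.50, 9.69). In PGCs 3 of 10 were lower than in ESCs and 2 higher, against 9.62% and 9.6% of all genes. The lower genes were Socs3 (4.54 in PGCs, 10.10 in ESCs), Bcl3 (3.14, 9.13) and Stat3 (7.52, 10.03), and the higher ones Ier3 (9.52, 7.40) and Jak2 (7.57, 6.39). In day 6 Ck-PGCLCs 7 of 10 were higher than in 48 h EpiLCs and 0 lower, against 9.01% and 9.17% of all genes. Among the 7 were Socs3 (8.71 in Ck-PGCLCs, 5.80 in EpiLCs), Bcl3 (8.32, 5.54) and Stat3 (9.09, 8.02). Over the 16 group means Klf4 correlated with Stat3 at r = 0.819 and with Socs3 at 0.816, while Klf2 gave 0.198 and 0.241. These correlations are descriptions over groups that share arrays, amplification and submission. The labels name LIF for the ESCs without Dox and for the Ck-PGCLCs, and not for the factor-induced cells or for the ESC samples given Dox, whose line was kept in 2i+LIF before induction.

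The naive partners are 12 genes that work beside the Kruppel-like factors. In 36 h EpiLCs 11 of 12 were lower than in BP14A ESCs, against 7.19% of all genes, and in day 2 BP14A cells 8 of 12 were higher than in EpiLCs and 1 lower, against 6.08% and 5.13%, with Prdm14, itself a transgene in these cells, among the 12. Esrrb, an orphan nuclear receptor gene, stood at 12.02 in day 2 BP14A cells, against 7.22 in EpiLCs, and Nr5a2, a nuclear receptor gene, at 9.81, against 5.10. Tbx3, a T-box gene of naive cells, did not pass (5.60 in BP14A cells, 5.57 in EpiLCs, limma adjusted p = 0.958), and it was higher in day 2 Ck-PGCLCs (9.17). In BP14A ESCs with Dox 5 of 12 were lower and 1 higher than without, against 3.68% and 5.25% of all genes. Tbx3 was lower there (7.39 with Dox, 10.16 without) and Esrrb was not called (11.86, 12.23, limma adjusted p = 0.777). Over 16 group means Klf2 correlated with Esrrb at r = 0.899 and with Tbx3 at 0.298, and Klf4 with Esrrb at 0.385 and with Tbx3 at 0.912. Klf5 lay between, at 0.645 and 0.641. Fgf5, a primed epiblast growth factor gene, correlated at -0.592 with Klf2, -0.789 with Klf4 and -0.806 with Klf5.

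**Figure D3:**
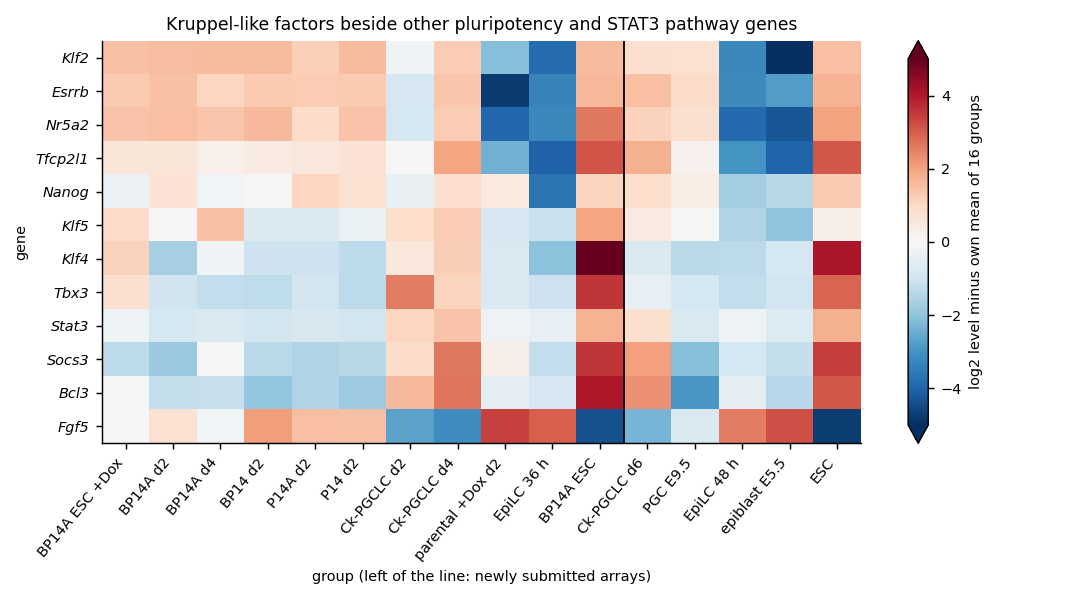
Group means of the 3 Kruppel-like factor genes, of naive partner and LIF-STAT3 pathway genes and of Fgf5, as log2 level minus the gene's own mean over 16 groups (colour, cut at 5 either way). Klf2, Esrrb and Nr5a2 are red in all factor-induced groups, whereas Klf4, Tbx3, Stat3, Socs3 and Bcl3 are all red only in ESCs without Dox and in Ck-PGCLCs of days 2 and 4. In day 6 Ck-PGCLCs Stat3 (0.82), Socs3 (2.05) and Bcl3 (2.28) are red and Klf4 (-0.74) is not.

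Of the other family members, 12 of 13 further Klf genes and 7 of 9 Sp genes were measured. In 36 h EpiLCs 4 Klf genes were lower than in BP14A ESCs and 0 higher, against 7.19% and 6.94% of all genes: Klf15 (4.05 in EpiLCs, 7.76 in ESCs), Klf3 (6.48, 9.40), Klf12 (6.22, 7.42) and Klf9 (10.22, 11.25). Klf3 encodes a repressor of the family and Klf15 a regulator of metabolism. In day 2 BP14A cells Klf3 (8.22) and Klf15 (5.86) were higher than in EpiLCs and Klf9 (8.69) lower, 2 and 1 of 12, against 6.08% and 5.13% of all genes. Against parental +Dox cells 0 of 12 were called by limma in day 2 BP14A cells, with 4 at an unadjusted p under 0.05. The shares there were 7.01% of all genes called lower and 5% of all probe sets called higher. Among the 7 Sp genes 2 were lower there, against 7.01% of all genes: the Wnt target Sp5 (3.61 in BP14A, 11.11 in parental +Dox cells) and Sp8 (2.49, 7.67). In PGCs Klf9 was 18.3-fold lower than in ESCs (6.56, 10.75). Ubiquitin ligase genes known to act on KLF proteins were 6 (Wwp1, Smurf1, Fbxo32, Btrc, Vhl and Fbxw7). In 36 h EpiLCs against ESCs 0 were called by limma (2 at an unadjusted p under 0.05), against 6.94% of all genes higher and 7.19% lower. In day 2 BP14A cells against EpiLCs 0 were called too (0 at that p), against 6.08% and 5.13%. With so few genes, 0 calls lie near those shares. For 12 ERK response genes, EpiLCs against ESCs gave 5 calls upward and 3 downward, where 6.94% and 7.19% of all genes were called, and 1 was higher and 3 lower in day 2 BP14A cells than in EpiLCs, against 6.08% and 5.13%. These arrays measure neither the stability nor the amount of KLF protein.

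By a fixed rule the genes most like each factor were ranked by Pearson correlation over the 16 group means, among 4479 genes spanning at least log2 2. Klf2 was closest to Hmces (0.974), which encodes a sensor of abasic sites in DNA, and to Ifitm1 (0.969), Nr5a2 (0.956), Il6st (0.947) and Zc3hav1 (0.940). Il6st, the shared receptor of LIF, stood at 9.70 in day 2 BP14A and 9.63 in day 2 Ck-PGCLCs, against 6.98 in EpiLCs. At the other end stood Myc (-0.928), Sema6a (-0.923) and Klhl14 (-0.922). By rank correlation Nr5a2 was the third closest gene and Hmces fell back (rho 0.909 and 0.629). Klf4 was closest to Apod (0.944), Spic (0.927), Mras (0.927), Osm (0.921) and Serping1 (0.917), of which Spic encodes an ETS factor and Osm a cytokine related to LIF, and farthest from Shroom4 (-0.929), Sertad4 (-0.914) and Gm17308 (-0.902). Klf5 was closest to Ralb (0.900), a small GTPase gene, Atp8b2 (0.892), Usp49 (0.884), S100a13 (0.869) and Cox7a1 (0.857), and farthest from Arrb1 (-0.885), Elovl4 (-0.878) and Ccdc40 (-0.865). Among themselves the factors correlated at 0.724 (Klf2 with Klf5), 0.653 (Klf4 with Klf5) and 0.373 (Klf2 with Klf4).

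Probe sets of the same gene did not always give the same reading. The 2 Klf4 probe sets correlated at r = 0.895 over the 16 group means and both placed the 2 ESC groups without Dox on top. They parted in BP14A ESCs with Dox, where 1417395_at read 6.28 and 5.42, above most groups, and 1417394_at read 3.49 and 3.21, inside the dim range. The 2 tested Klf5 probe sets correlated at 0.868, but 1451739_at spanned only 1.24 over the group means, against 3.99 for 1451021_a_at, and was called in none of the 34 contrasts with all arrays. Without EpiLC replicate 1 its log2 change in 36 h EpiLCs against BP14A ESCs was -1.35, and over the 4 fits without 1 array it ran from -1.35 to -0.46. Against EpiLCs it was then higher by 1.25 in day 2 Ck-PGCLCs, 1.16 in day 4 Ck-PGCLCs and 1.23 in day 4 BP14A cells. Over the 4 fits of each comparison without 1 array, the lowest differences were 0.36, 0.27 and 0.34. An average over all 3 Klf5 probe sets took in the untested 1430255_at, which was dim throughout. By that average Klf5 was no longer called in 7 comparisons. Among them were 48 h EpiLCs against ESCs (log2 change -0.42, limma adjusted p = 0.299) and day 4 against day 2 BP14A cells (0.40, adjusted p = 0.540). An average of the 2 tested probe sets alone was not tested. The third Klf5 probe set, 1430255_at, was dim on all 32 arrays (1.18 to 3.75), was not tested and correlated at 0.222 and 0.112 with the other two.

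**Figure D4:**
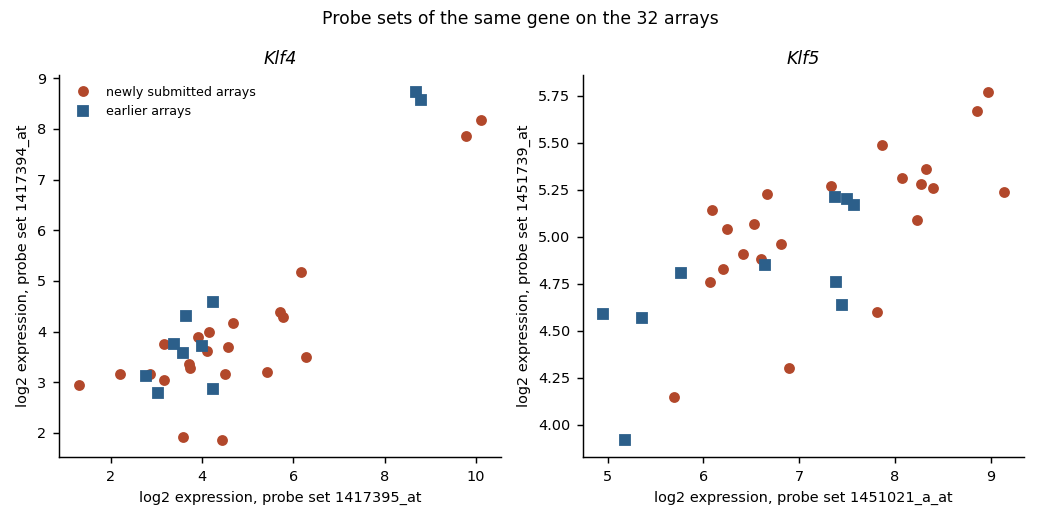
Log2 expression of the 2 Klf4 probe sets (left) and of the 2 tested Klf5 probe sets (right), 1 point per array for 32 arrays. For Klf4 the 4 arrays of ESCs without Dox stand alone at the top right and the rest form a low cloud, and for Klf5 the vertical axis covers less than the horizontal one, 3.92 to 5.77 against 4.95 to 9.14.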

How the data were processed

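The authors deposited log2 expression values per probe set. How they were summarised and normalized is not given in the sources used here, and the array medians ran from 4.62 to 4.79. They were quantile normalized here with limma 3.58.1 in R 4.3.3, without a pseudocount. Of 34958 probe sets with 1 gene symbol in the platform annotation, 6 name Klf2, Klf4 or Klf5, 932 probe sets carry several symbols and 9160 are not listed. Leaving out 64 controls, 32703 probe sets with a group mean at or above the 40th percentile were fitted in 1 model over the 16 groups, with moderated tests and Benjamini-Hochberg adjustment over all of them. The scripts were tested on simulated data. Pathway and marker genes were read by the brightest probe set. Named genes are the members, the members of the pathway lists, and the 5 genes most and 3 least correlated with each factor. Members and lists were chosen with earlier results of these data known. Some same-numbered arrays deviated together (correlations -0.25 to 0.48, median 0.07, 47 of 120 over 0.1). No block was used in the main fit, and a replicate block was among the alternatives. The alternatives were the deposited scale, median centring, other filters, other fits, each array left out, and gene-level summaries.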

Additional observations from a re-analysis of the deposited data

Results flagged for a closer look

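The day 4 over day 2 step of Klf2 differed between BP14A cells and Ck-PGCLCs by -1.46 on the log2 scale (SE 0.42, 95% interval -2.35 to -0.57, limma adjusted p = 0.0337), and it is listed because this difference between the groups' effects passed its own test. The step was 0.04 in BP14A cells and 1.50 in Ck-PGCLCs. Leaving out 1 of the 8 arrays gave differences of -1.66 to -1.27, negative in each of the 8 fits. The call was kept without day 4 Ck-PGCLC replicate 1 (-1.66, limma adjusted p = 0.0458) and lost in the other 7 fits (adjusted p = 0.0548 to 0.131). Klf2 stood at 11.52 at day 2 in BP14A cells, within 0.05 of its highest group mean.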

How the results depend on the processing

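No Kruppel-like factor probe set with a call, in the main setting or in the alternative, changed direction, while some estimates without a call changed sign, such as the brighter Klf4 probe set in day 2 BP14A cells against EpiLCs (-0.90 to 1.71). The deposited scale gave 2 calls in place of 1 for BP14A ESCs with Dox against day 2 BP14A cells and for the day step. On that scale Klf5 was also called lower in BP14A cells than in Ck-PGCLCs at day 2 (-1.05, limma adjusted p = 0.0109). Without the filter, 1 was called in place of 2 for BP14A cells against Ck-PGCLCs at day 2, and 0 in place of 1 for the day step. With arrays of the same submission only, the counts were 1 in place of 2 for that day 2 comparison and 0 in place of 1 for 48 h EpiLCs against the epiblast. Without a fold limit, BP14A over parental +Dox cells had 2 in place of 1, and Klf5 passed in BP14A cells against Ck-PGCLCs at day 2 (-0.85). The setting without arrays of low RNA quality kept day 4 BP14A replicate 2, although its Gapdh value (-2.99) was under -2.5. It left 1 array in each of the 5 groups with such arrays. Day 4 BP14A cells against EpiLCs was there a comparison of 1 array with 1. So were day 4 BP14A cells and 36 h EpiLCs against BP14A ESCs, and BP14A ESCs with against without Dox. Counts of these comparisons in that setting are descriptive only. Without the arrays of low RNA quality, an alternative chosen after seeing the data, day 4 cells against EpiLCs gave 5 in place of 3 (Ck-PGCLCs) and 4 in place of 2 (BP14A), and BP14A against Ck-PGCLCs at day 4 and the day step gave 0 in place of 1. Leaving out each array gave 1 to 2 calls for day 2 BP14A cells against EpiLCs, 0 to 1 for day 4 against day 2 BP14A cells, 1 to 2 for BP14A against parental +Dox cells, 1 for BP14A against Ck-PGCLCs at day 2 and 0 to 1 at day 4, 0 to 1 for ESCs with Dox against BP14A cells, 0 to 1 for the day step, 2 to 4 for day 4 BP14A cells against EpiLCs and 1 to 2 for parental +Dox cells against EpiLCs. The cause was not tested. A replicate block on the array numbers, which do not pair the samples, left all 34 counts at the same value, as did the 60th percentile filter and a robust trend fit. Median centring changed 1 count, to 2 in place of 3 for ESCs with against without Dox. Averaging all of a gene's probe sets, the dim untested Klf5 one included, ended 7 Klf5 and 2 Klf4 calls and added 1. Over all probe sets the count of calls moved by over 1.5 times as follows: 33 without the filter, 112 in the same submission and 11 without low-quality arrays, in place of 54, for BP14A over BP14 cells, 253 in place of 1211 for 48 h EpiLCs against the epiblast and 817 in place of 1748 for day 6 Ck-PGCLCs against PGCs in the same submission, and 164 in place of 370, 868 in place of 1503 and 1367 in place of 2292 without low-quality arrays for day 4 against day 2 BP14A cells, BP14A against Ck-PGCLCs at day 4 and ESCs with against without Dox. Where few were called, the counts were 2 (no filter) and 8 (same submission) in place of 4 for BP14A over P14A cells, 16 in place of 7 for P14A over P14 cells and 15 in place of 8 for the Tfap2c interaction in the same submission, 3 in place of 8 for that interaction without low-quality arrays, and 92, 229 and 42 in place of 145 for the EpiLC steps without the filter, with the 60th percentile filter and without low-quality arrays. Without a fold limit 24 of 34 counts moved, by up to 1.72 times. Leaving out 1 array gave 106 to 210 calls in 3 fits of day 4 against day 2 BP14A cells, 19 to 316 for BP14A over BP14 cells, 775 and 859 for BP14A against Ck-PGCLCs at day 4, and 117 in place of 11 for BP14 over P14 cells without BP14 replicate 2. The brighter Klf4 probe set reached 4.05 in 6 of 16 group means, and signal near background limits its precision in the others.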

Other observations

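Among 10 primed epiblast genes 7 were higher and 0 lower in 36 h EpiLCs than in BP14A ESCs, where 6.94% and 7.19% of all genes were called. In day 2 BP14A cells 7 were lower and 0 higher than in EpiLCs, against 5.13% and 6.08% of all genes. Early germ cell genes, 9 of 10 measured and among them the 3 transgene factors, were all higher in day 2 BP14A cells than in EpiLCs, against 6.08% of all genes, and 6 were higher in day 2 Ck-PGCLCs, against 8.2%. In BP14A ESCs with Dox 5 of those 9 were higher and 1 lower than without Dox, against 5.25% and 3.68% of all genes, in the same cells in which Klf4 fell by 4.10 and Klf2 was not called.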
